A study of Mus musculus with 3 samples.

Results

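The transcripts of 8 interferon-inducible GTPases were followed in 4T1 cells, a mouse mammary carcinoma cell line. They were the immunity-related GTPases Irgm1, Irgm2, Igtp and Iigp1 and the guanylate-binding proteins Gbp2, Gbp3, Gbp6 and Gbp7. All probe sets of the array whose annotation gave 1 of these genes, or a synonym of it, as the only symbol were taken. This gave 12 probe sets of 34945 with a single symbol, and 8 genes of 18193 named on the array. Irgm1, Irgm2, Igtp and Gbp3 had 1 probe set each, and the other 4 genes had 2 each. The genes were chosen on their signals in these arrays, with the difference between co-culture and the media already known. Their values in co-culture are therefore a description and support nothing by themselves.

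RNA was measured on 3 Affymetrix Mouse Genome 430 2.0 arrays, 1 for each culture condition. In co-culture, 4T1 cells grew in contact with MSCs (most often short for mesenchymal stromal or stem cells) for 1 week and were then isolated. In conditioned medium, 4T1 cells were kept for 1 week in MSC-CM, medium conditioned by MSCs without contact. In regular medium, the cells had neither, and the labels give no time for them. All 3 conditions used RPMI-1640 with 10% FBS, but where the MSCs came from and how 4T1 cells were separated from them were not stated in the labels. Each condition had 1 array, so no difference below has a replicate error or a test, and contact, isolation and carried-over MSC RNA cannot be told apart.

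Immunity-related GTPases and guanylate-binding proteins are made when interferon reaches a cell, and in mice they defend cells against microbes that live inside vacuoles. Effector members such as Iigp1 and the guanylate-binding proteins settle on the vacuole membrane and help to break it, while the Irgm proteins sit on the cell's own membranes and keep the effectors off them. Interferon gamma acts mainly at promoter elements called GAS. Type I interferons act mainly through ISGF3, a complex that binds DNA through IRF9, at elements called ISRE, and IRF1 binds ISRE-like sites as well.

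The sequences shown here are the stretches just upstream of the members' transcript starts, because all of them hold the same pattern. RefSeq promoter windows of the GRCm38.p6 build, running from 250 bases before to 50 after each listed start, were found for 6 of the 8 members. Iigp1 and Gbp6 are named only. An ISRE pattern was searched as GAAA, any 2 bases and GAAA again, or TTTC, any 2 bases and TTTC again on the opposite strand, and a GAS pattern as TTCNNNGAA, which reads the same on both strands. The 150 bases before the start lie at chr11:48871421-48871570 on the minus strand for Irgm1. For Irgm2 and Igtp they lie on the plus strand at chr11:58214827-58214976 and chr11:58199406-58199555. For Gbp2, Gbp3 and Gbp7 they lie on the plus strand at chr3:142620513-142620662, chr3:142559894-142560043 and chr3:142530186-142530335. Capitals mark matches to either pattern, 5′ to 3′ on the gene's strand.
Irgm1: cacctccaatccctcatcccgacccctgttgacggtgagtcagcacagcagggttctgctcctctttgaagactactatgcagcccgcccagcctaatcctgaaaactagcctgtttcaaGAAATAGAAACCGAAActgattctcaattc
Irgm2: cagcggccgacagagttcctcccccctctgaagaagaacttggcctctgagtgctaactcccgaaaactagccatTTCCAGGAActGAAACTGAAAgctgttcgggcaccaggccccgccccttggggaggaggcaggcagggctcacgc
Igtp: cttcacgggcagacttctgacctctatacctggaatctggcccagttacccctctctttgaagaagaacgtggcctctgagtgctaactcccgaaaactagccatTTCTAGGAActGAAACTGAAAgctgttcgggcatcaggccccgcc
Gbp2: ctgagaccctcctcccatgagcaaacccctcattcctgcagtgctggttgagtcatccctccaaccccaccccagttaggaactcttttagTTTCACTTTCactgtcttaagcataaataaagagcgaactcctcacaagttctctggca
Gbp3: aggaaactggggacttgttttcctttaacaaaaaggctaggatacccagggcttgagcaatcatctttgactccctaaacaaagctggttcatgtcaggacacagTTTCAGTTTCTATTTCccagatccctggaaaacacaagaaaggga
Gbp7: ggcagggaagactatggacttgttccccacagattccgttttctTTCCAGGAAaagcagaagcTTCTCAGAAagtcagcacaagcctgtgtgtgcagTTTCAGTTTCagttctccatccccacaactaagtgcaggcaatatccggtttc

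All 6 members with a window held the ISRE pattern, whereas 3.99% of 27025 genes with a window did. Counted by windows, 6 of 7 member windows held it, against 3.44% of 32851. The match began 64 bases upstream of the start in Irgm2, 34 in Igtp, 59 in Gbp2 and 53 in Gbp7. Irgm1 held 2 overlapping matches beginning 30 and 24 bases upstream, and Gbp3 held 2 overlapping matches beginning 45 and 39 bases upstream. A second listed start of Gbp3 had a window with neither pattern. The GAS pattern was found in Irgm2, Igtp and Gbp7, against 9.55% of all genes with a window. In Irgm2 and in Igtp the GAS match ended 2 bases before the ISRE match. Gbp7 had 2 GAS matches, 25 and 44 bases from its ISRE match. Irgm2 and Igtp are neighbours, and their windows aligned with 73.5% identical positions. The other 14 pairs of members ranged from 46.8% to 53.9%. A match is a description of letters in a window and not a bound site, and the missing GAS letters in Irgm1, Gbp2 and Gbp3 say only that these letters are not in these windows.

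**Figure D1:**
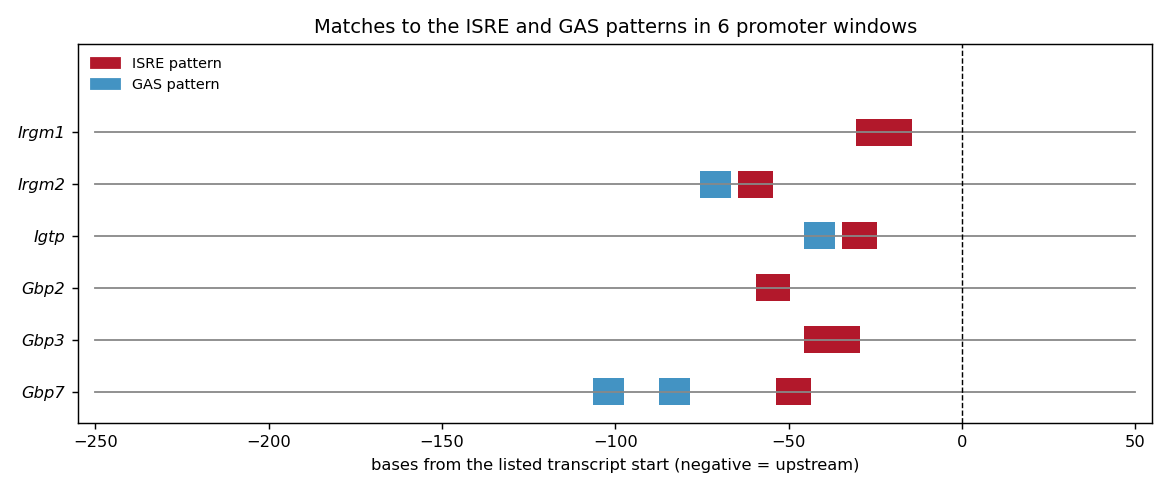
Matches to the ISRE pattern (red) and the GAS pattern (blue) in the promoter windows of 6 GTPase genes, with the distance from the listed transcript start in bases on the x axis and a dashed line at the start. Every plotted window has red within 64 bases upstream of the start, and Irgm2, Igtp and Gbp7 also have blue, farther upstream than the red.

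Signals are MAS5 intensities, a linear scale on which each array had been brought to a common level. Levels of different probe sets are not compared, since probe sets differ in sensitivity. Signals under 42.4, the 40th percentile over all arrays, were raised to this floor before logarithms to base 2. Where the dimmer signal lay at the floor, the fold is a lower bound. A gene counted as measured in a comparison when 1 of its 2 signals reached 149.3, the 60th percentile, and as higher or lower when it was measured and differed at least 2-fold. A gene below 149.3 on 1 of the 2 arrays was thus measured only if bright on the other, and could be called in 1 direction only. Where a gene had more than 1 probe set, the one with the highest mean signal stood for it. The arrays had median signals of 72.5 in co-culture, 71.6 in conditioned medium and 79.8 in regular medium. All but 1 of the 17 epithelial markers checked, among them Epcam and Krt18, were bright on every array, and the other was Krt5, a basal keratin.

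All 8 GTPase genes were higher in co-culture than in regular medium, by 3.58-fold to 24.6-fold, and so were all 12 probe sets. Of 9393 measured genes, 5.81% were higher and 2.76% were lower in the same comparison. Of 16899 measured probe sets, 5.37% were higher and 5.49% were lower. Because the genes were chosen with this contrast known, nothing is read from the count. The median log2 difference of the 8 genes was 2.64, a median fold of 6.24 with Gbp6 at its lower bound, beside 0.07 for all measured genes. Ranked from the highest difference among measured genes, Irgm2 was at place 2, Igtp at 7, Gbp7 at 13 and Gbp6 at 32. Iigp1 was at 58, Irgm1 at 84, Gbp2 at 111 and Gbp3 at 121. In bulk RNA, more transcript per cell cannot be told apart from more cells that carry it.

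Irgm2 and Igtp differed most of the 8 genes, and Irgm1 differed less. Irgm2, which acts at the Golgi apparatus and restrains caspase-11, had a signal of 1912 in co-culture, 74.8 in conditioned medium and 77.6 in regular medium. Co-culture alone was bright, 24.6-fold above regular medium, and the media without contact were level with each other. Igtp, also called Irgm3 and found on the endoplasmic reticulum and lipid droplets, had 1489.8 in co-culture, 69.4 in conditioned medium and 88.8 in regular medium. It was 16.8-fold higher in co-culture than in regular medium, and again only the co-culture array passed 149.3. Irgm1, which is linked to autophagy and the health of mitochondria, had 2581 in co-culture, 427 in conditioned medium and 591 in regular medium. Irgm1 was bright on all 3 arrays, and its fold of 4.37 was the smallest among the Irgm genes. The sizes for Irgm2 and Igtp depend on the floor, since both media were dim, and with the floor at the 60th percentile the log2 differences were 3.68 and 3.32 in place of 4.62 and 4.07.

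Iigp1, also called Irga6, is an effector that coats the vacuoles of Toxoplasma in mouse cells. Its brighter probe set had 427 in co-culture, 56.9 in conditioned medium and 81.4 in regular medium, 5.25-fold higher in co-culture than in regular medium. Its other probe set had 160.2 in co-culture, 23.0 in conditioned medium and 3.9 in regular medium, at least 3.78-fold higher, since both media lay under the floor. Co-culture was the highest array for both. With the floor at the 60th percentile the log2 difference of the brighter probe set was 1.52 in place of 2.39.

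Among the guanylate-binding proteins, which are large GTPases related to dynamin, Gbp7 differed most. Its brighter probe set had 1304 in co-culture, 133 in conditioned medium and 104.5 in regular medium, and the fold over regular medium was 12.5. The other had 384 in co-culture, 90.6 in conditioned medium and 78.3 in regular medium, a fold of 4.9. The probe sets agreed in direction and order, but their folds over regular medium differed 2.54-fold from each other, the widest gap among the 4 genes with 2 probe sets. Gbp7 is known in mouse cells for a part in control of Toxoplasma.

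Gbp6 was bright in co-culture and under the floor in both media. The probe set that stands for it had 314.5 in co-culture, 7.7 in conditioned medium and 2.4 in regular medium, at least 7.42-fold higher in co-culture. Its other probe set had 269 in co-culture, 33.2 in conditioned medium and 12.8 in regular medium, at least 6.34-fold higher. Both probe sets lay under the floor in both media, so the size above the bound is not known and the order of the media has no meaning.

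Gbp2 and Gbp3 had the smallest folds of the 8 genes and were already bright in regular medium. Gbp2, which is recruited to pathogen vacuoles and to bacteria, had 675 in co-culture, 216 in conditioned medium and 181 in regular medium with the probe set that stands for it, 3.72-fold higher in co-culture. Its other probe set had 756 in co-culture, 126 in conditioned medium and 132 in regular medium, 5.72-fold higher. The name of the other probe set marks probes that may also bind transcripts of other genes, and related guanylate-binding proteins lie next to Gbp2. Gbp3 had 856 in co-culture, 173 in conditioned medium and 239 in regular medium, a fold of 3.58. In both genes the co-culture signal stood apart from the other arrays.

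Conditioned medium was set against regular medium to see the GTPases after exposure to MSC factors without contact. None of the 8 genes was higher or lower by 2-fold, where 0.109% of 9152 measured genes were higher and 0.306% lower. None of the 12 probe sets was either, where 0.188% of 16494 measured probe sets were higher and 0.388% lower. Only Irgm1, Gbp2 and Gbp3 counted as measured here, with log2 differences of -0.47, 0.25 and -0.47. The central 95% of measured genes ran from -0.47 to 0.40 with a median of 0.01, so all 3 lay within the bulk of genes, Irgm1 and Gbp3 at its lower edge. Among genes below 149.3 on both arrays, Iigp1 had -0.52, Igtp -0.36, Irgm2 -0.05 and Gbp7 0.34, and Gbp6 was at the floor on both. The 4 immunity-related GTPases all lay below 0, with a median of -0.41, and the guanylate-binding proteins lay on both sides, with a median of 0.13. Under quantile normalization and under scaling to a common median Irgm2 moved to 0.10, so the shared sign does not hold there.

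Set against conditioned medium, which shares the co-culture array with the comparison above, the 8 genes were again all higher, where 5.83% of 9350 measured genes were higher and 2.6% lower. All 12 probe sets were higher too, where 5.45% of 16796 measured probe sets were higher and 5.48% lower. The folds were 25.6 for Irgm2, 21.5 for Igtp, 7.51 for Iigp1 and 6.04 for Irgm1. They were 9.83 for Gbp7, at least 7.42 for Gbp6, 4.96 for Gbp3 and 3.13 for Gbp2. The median log2 difference was 2.90, beside 0.07 for all measured genes. For Irgm1 and Gbp3 the fold was larger than against regular medium, and for Gbp2 and Gbp7 it was smaller.

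**Figure D2:**
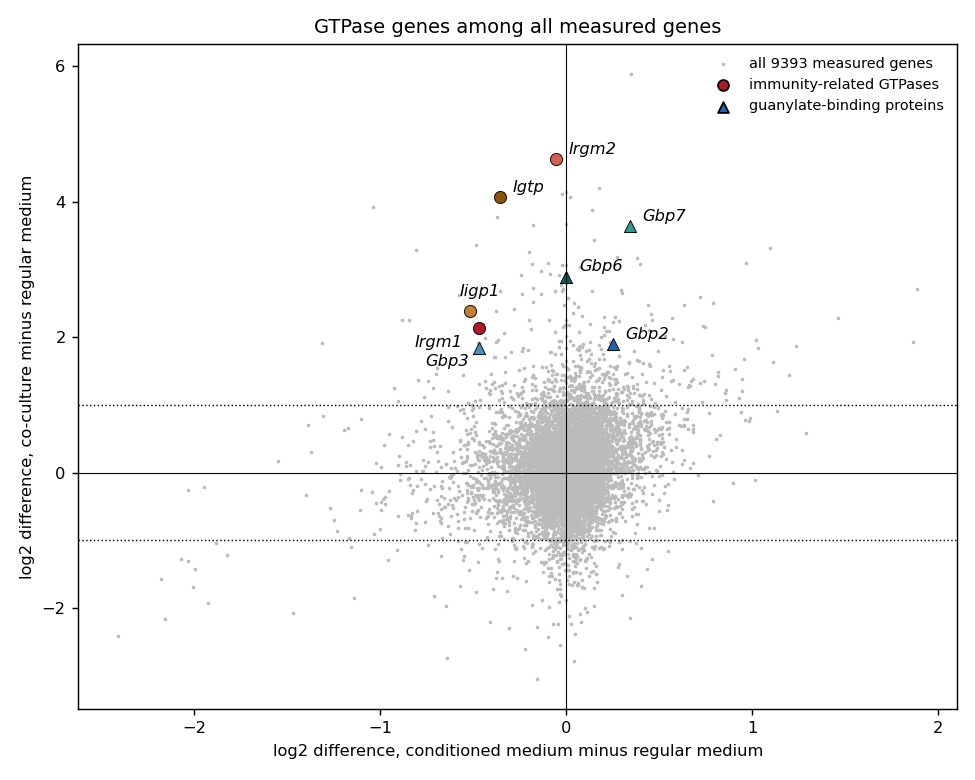
Log2 difference of conditioned medium minus regular medium (x axis) against that of co-culture minus regular medium (y axis) for 9393 measured genes (grey), with the immunity-related GTPases as circles and the guanylate-binding proteins as triangles. Both axes share the regular-medium array, and the dotted lines mark a 2-fold difference in co-culture. The 8 genes lie between 1.84 and 4.62 on the y axis and between -0.52 and 0.34 on the x axis.

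Other genes of the same families were taken as a list, without regard to how they moved, and the list may not hold every such gene. Of 35 listed symbols 6 had a probe set of their own, and 3 of these were measured. Gbp2b, which lies between Gbp3 and Gbp2, had 992 in co-culture, 199.6 in conditioned medium and 195 in regular medium, a fold of 5.09 over regular medium. Ifi47, also called Irgd, had 895 in co-culture, 364 in conditioned medium and 300.5 in regular medium, a fold of 2.98. Both were higher in co-culture, as 5.81% of measured genes were. Irgq, a distant relative, had 326 in co-culture, 240.3 in conditioned medium and 280.4 in regular medium and met no size rule. Gm4951, the nearest named gene before Iigp1, had 132 in co-culture, 2.7 in conditioned medium and 10.2 in regular medium. It was at least 3.11-fold higher in co-culture but below 149.3. Gbp8 and Irgc1 lay under the floor on all arrays, at 41.0 or less.

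Of 10 measured GTPases of the wider dynamin superfamily 1 was higher in co-culture and none was lower, where 5.81% and 2.76% of all measured genes were. The median log2 difference of the 10 was 0.19. The one was Mx2, an interferon-induced antiviral dynamin relative, with 191 in co-culture, 7.1 in conditioned medium and 8.9 in regular medium, at least 4.51-fold higher. Membrane-shaping members that are not known as interferon targets ranged from -0.84 for Ehd2 to 0.63 for Mfn2, the mitochondrial fusion protein mitofusin.

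The members sit in gene clusters, and the 3 nearest named genes on each side of each member were taken in the order of the GRCm38.p6 RefSeq annotation. Genes without a probe set of their own were skipped, so a neighbour here need not be the adjacent gene. Family genes such as Gm12250, before Igtp, and Gbp5, before Gbp7, were skipped in this way. Of 36 distinct neighbours 5 were themselves members, 4 were on the list of other family genes and 27 were on neither list. The list may not be complete, so some of the 27, such as Gm12185 and BC023105, may belong to the families. Among the 13 measured of those 27, none was higher and none was lower in co-culture, where 5.81% and 2.76% of all measured genes were. Their median log2 difference was -0.16. Mrpl22, the nearest named gene before Igtp, had 3583 in co-culture, 3753.5 in conditioned medium and 3588 in regular medium. Kyat3, the nearest named gene after Gbp2, had 317 in co-culture, 367 in conditioned medium and 424 in regular medium. Its log2 difference between co-culture and regular medium was -0.42. Pdlim5, the nearest named gene before Gbp7, had 2218 in co-culture, 2000.1 in conditioned medium and 2222 in regular medium. None of these 3 genes differed 2-fold, where the GTPase genes differed at least 3.58-fold.

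**Figure D3:**
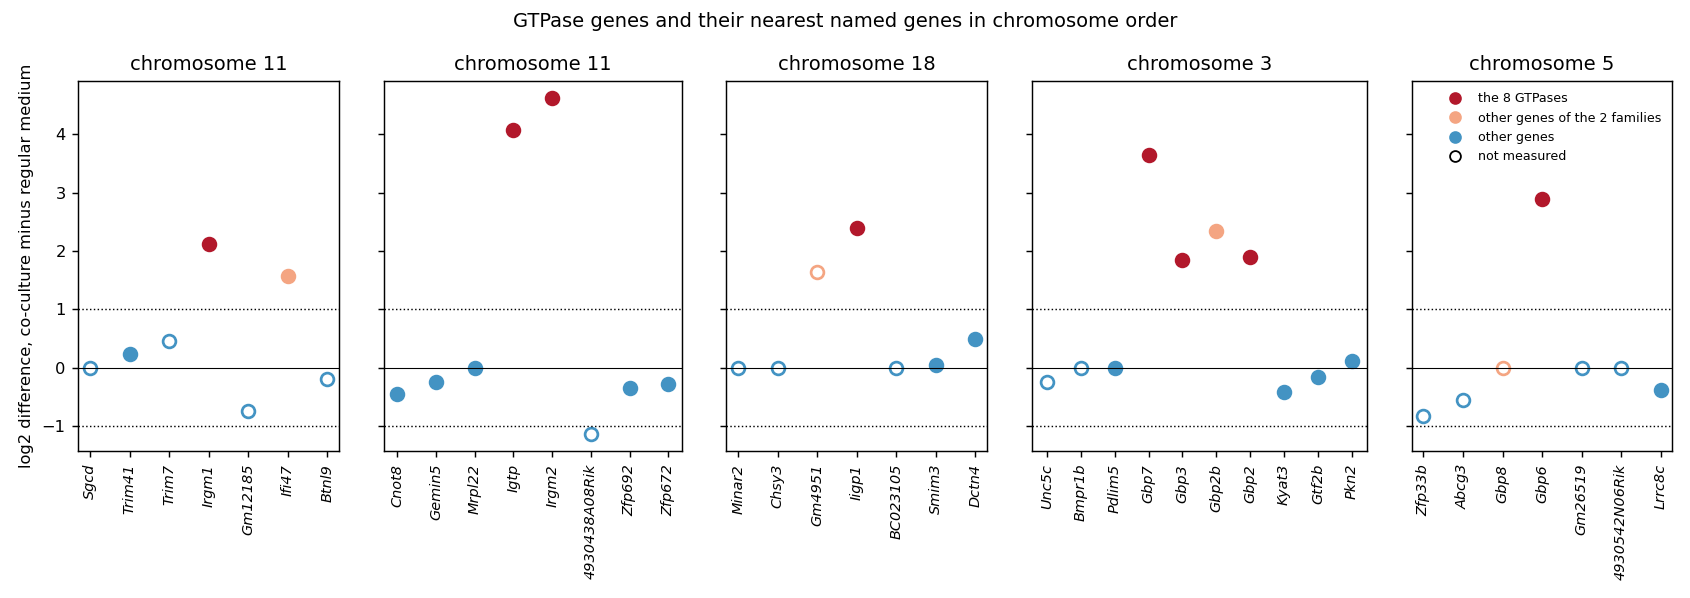
Log2 difference of co-culture minus regular medium (y axis) for the GTPase genes (red), other genes listed for the same families (orange) and their other nearest named genes (blue), placed in chromosome order along the x axis with no scale of distance. Open circles are genes below 149.3 on both arrays, and dotted lines mark a 2-fold difference. The red points rise to 1.84 or more, and no filled blue point reaches a dotted line.

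The pathway that switches these GTPases on was followed from ligand to target. Ifng, which encodes interferon gamma, had 7.2 in co-culture, 7.0 in conditioned medium and 7.9 in regular medium, and Ifnb1, which encodes interferon beta, had 34.8 in co-culture, 47.4 in conditioned medium and 65.1 in regular medium. The 7 interferon alpha-type probe sets reached 74.3 at most on any array. Ifnz, a mouse type I interferon gene, was the only one of 10 ligands that was measured, with 402 in co-culture, 260 in conditioned medium and 164.5 in regular medium, 2.45-fold higher in co-culture. These are signals of the RNA taken after isolation, and the ligands made by MSCs in the mixed culture were not analysed here.

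Of 19 measured receptor, JAK, STAT and IRF genes and their inhibitors, 4 were higher and 1 was lower in co-culture than in regular medium. Among all measured genes the shares were 5.81% and 2.76%. The median log2 difference of the 19 was 0.40. The interferon gamma receptor chains Ifngr1 and Ifngr2 had 0.37 and -0.45, and the type I receptor chains Ifnar1 and Ifnar2 had 0.32 and 0.75. The interferon lambda receptor chain Ifnlr1 had 0.59 and Il10rb, its partner chain, 0.46. Jak2, a kinase of the gamma receptor, had 1231 in co-culture, 646 in conditioned medium and 606 in regular medium, a fold of 2.03. Jak1 and Tyk2, the kinases of the type I receptor, had log2 differences of 0.35 and 0.43.

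The transcription factors of the pathway included 3 of the 4 higher genes. Irf7, which amplifies type I interferon, had 1080.4 in co-culture, 63.6 in conditioned medium and 111 in regular medium, 9.72-fold higher in co-culture than in regular medium. Irf9, the DNA-binding part of ISGF3, had 1022 in co-culture, 136 in conditioned medium and 154 in regular medium, 6.64-fold higher. Irf1, itself a target of interferon gamma, had 3993 in co-culture, 1535.5 in conditioned medium and 1541 in regular medium, 2.59-fold higher. These 3 factors were above both media in co-culture. Stat2, Irf2 and Stat3 had log2 differences of 0.86, 0.40 and 0.27, and Irf8 was below 149.3 in both co-culture and regular medium. Ptpn6, the phosphatase SHP-1 that dampens JAK signals, was 2.65-fold lower, with 151 in co-culture, 379 in conditioned medium and 401 in regular medium. The inhibitor genes Socs3, Ptpn2 and Pias1 had -0.67, -0.18 and -0.19, and Socs1 had -0.56 with both signals below 149.3.

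Measured genes on 2 lists of interferon targets were mostly higher. A gene listed under its main driver can also answer the other interferon type, so the lists do not separate the types. Of 20 measured genes listed as driven mainly by ISGF3, 19 stood higher in co-culture and not one stood lower, where 5.81% and 2.76% of all measured genes did. The median log2 difference of this list was 3.02. Of 11 measured genes listed as driven mainly by interferon gamma, 10 were higher, none was lower, and the median was 1.40. A gene dim in regular medium was measured only if bright in co-culture, so it could be level or higher but not lower. In regular medium 10 genes of the ISGF3 list and 7 of the gamma list were bright, against 20 and 11 in co-culture. Only the genes bright in regular medium could have been called lower. The largest of the ISGF3 list were Usp18 at 58.9-fold, Oasl2 at 18.3-fold, Ifit1 at 16.8-fold and Rtp4 at 14.7-fold. Next were Oas3 at least 12.7-fold and Xaf1 at 12.6-fold. The largest of the gamma list were Cxcl11, a chemokine, at 7.58-fold, Tap1, a peptide transporter subunit, at 6.22-fold, and Psmb8 and Psmb9 of the immunoproteasome at 3.68-fold and 3.14-fold. Cd74, the class II invariant chain, and Nlrc5, the transactivator of class I genes, followed at 2.9-fold and 2.64-fold. Several genes known as targets of interferon gamma stayed under the floor. Ciita, the class II transactivator, had 30.7 in co-culture, 29.8 in conditioned medium and 40 in regular medium. Cxcl9, a chemokine, had 20.2 in co-culture, 14.4 in conditioned medium and 11.7 in regular medium. H2-Eb1, a class II chain, had 14.7 in co-culture, 16.4 in conditioned medium and 10.8 in regular medium. The GTPase median of 2.64 lay between the medians of these lists, and nothing is read from that order. Irf1 and Irf7 are counted in the receptor list too, and Mx2 is counted among the dynamin relatives too.

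**Figure D4:**
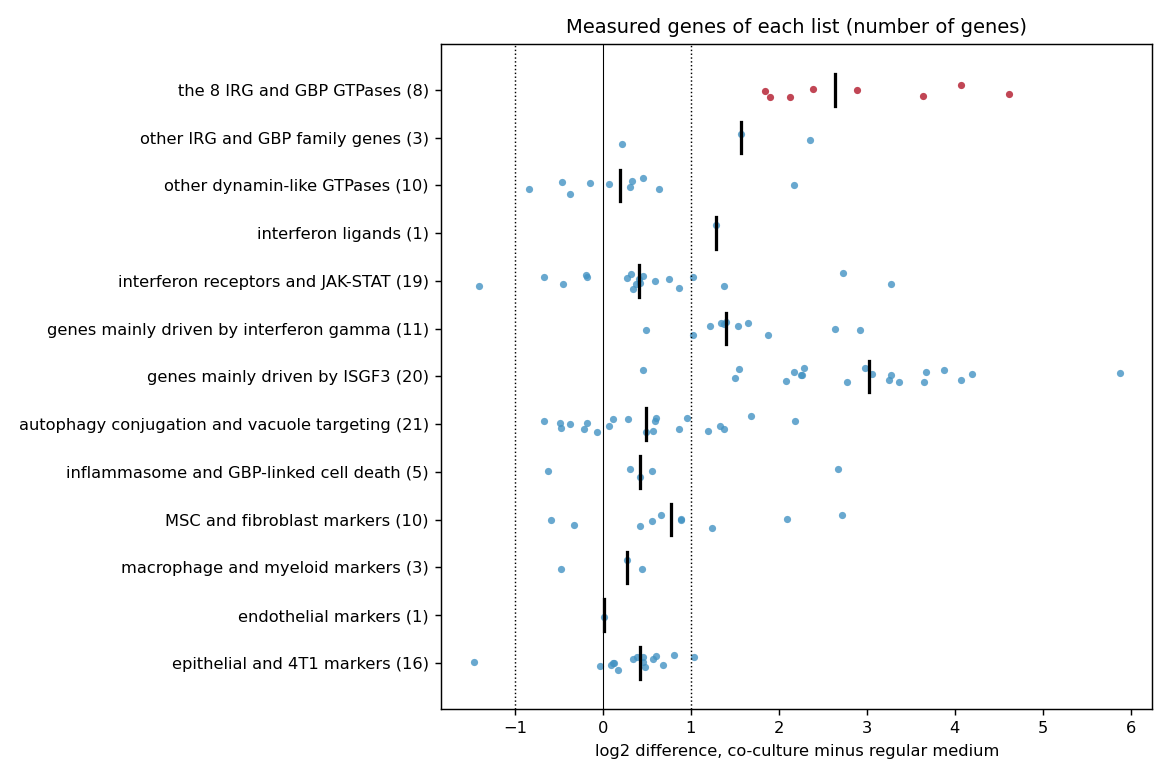
Log2 difference of co-culture minus regular medium (x axis) for each measured gene of the 8 GTPases (red) and of the other lists (blue), 1 point per gene, with a black bar at the list median and the number of measured genes in brackets. Dotted lines mark a 2-fold difference. All red points lie at 1.84 or higher, and the list driven mainly by ISGF3 has its bar at 3.02.

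Partners of the GTPases were listed from their known biology. Irgm and effector proteins depend on the ATG conjugation system that attaches LC3-like proteins to membranes. Of 21 measured genes of autophagy conjugation and vacuole targeting, 5 were higher in co-culture than in regular medium and none was lower. Among all measured genes the shares were 5.81% and 2.76%. The median log2 difference of the 21 was 0.49. The 5 were Lgals9, a galectin, at 4.55-fold, Trim21, a ubiquitin ligase that is itself induced by interferon, at 3.21-fold, the LC3 gene Map1lc3a at 2.6-fold, Atg10 at 2.52-fold and Atg12 at 2.28-fold. Atg5 and Atg16l1, which form the conjugation complex with ATG12, had log2 differences of 0.28 and -0.22. Gabarapl2, the LC3-like protein that works with Irgm2, had -0.37.

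Guanylate-binding proteins open bacteria and vacuoles to caspase-11, the product of Casp4 in mice. Casp4 had 307 in co-culture, 47.3 in conditioned medium and 48.0 in regular medium, a fold of 6.4. It was the only higher gene of 5 measured in the inflammasome list, with none lower, where 5.81% and 2.76% of all measured genes were. Gsdmd, the pore protein that caspase-11 cuts, had 207 in co-culture, 239.8 in conditioned medium and 167.5 in regular medium. Aim2 and Pycard, a DNA sensor and the adaptor of inflammasomes, were under the floor on all arrays, at 27.6 or less.

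The genes whose pattern lay nearest to the members were sought among 9140 genes that were bright in co-culture. The measure was the distance between a gene's pair of log2 differences against regular medium, in co-culture and in conditioned medium, and the median pair of the members, 2.64 and -0.20. It rests on 3 arrays. In order of distance the 10 genes were Tap1, Padi1, Irf9, Car6, Stbd1, Afap1l2, Casp4, Cdsn, Oas2 and Zfas1. Tap1 had 678 in co-culture, 92.6 in conditioned medium and 109 in regular medium and lay 0.03 from the median pair, and Zfas1 was the farthest at 0.23. Of the 10, Tap1, Irf9, Casp4 and Oas2 belong to the interferon or inflammasome lists above, and Padi1, Car6, Stbd1, Afap1l2, Cdsn and Zfas1 belong to none of the lists. The median pair comes from members chosen on these same signals, so the order is a description and nothing is read from it.

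Markers of other cell types that could bring interferon-induced transcripts were read on the same arrays. Of the MSC and fibroblast markers 10 were measured. In co-culture 3 of these stood higher than in regular medium and none stood lower, where 5.81% and 2.76% of all measured genes did. The median log2 difference of the 10 was 0.77. The higher markers were Acta2, smooth muscle actin, at least 6.56-fold, Bgn at least 4.28-fold and Postn at 2.35-fold. Acta2 had 278 in co-culture, 157 in conditioned medium and 42.4 in regular medium, so it was higher without contact too, at least 3.7-fold in conditioned medium against regular medium. The signals of all 19 markers with a probe set summed to 11284 in co-culture, 8857 in conditioned medium and 8729 in regular medium. A sum over a list is led by its brightest probe sets. Here these were bright in regular medium too, with Fbln2 at 3933, Nt5e at 2157, Eng at 938 and Postn at 766. The sum is therefore no measure of MSC RNA. Of the 19, 6 lay at or under the floor in co-culture, against 9 in conditioned medium and 9 in regular medium. The 6 were Col1a1 at 41.9, Cxcl12 at 40.5, Mgp at 38.9, Dcn at 35.2, Pdgfrb at 24.3 and Thy1 at 6.7. Fap, Col3a1 and Lum lay above the floor in co-culture but below 149.3, at 69.3, 45.7 and 43.8, against 47.0, 51.6 and 16.6 in regular medium. Of the remaining markers, Col1a2, Pdgfra, Eng, Nt5e and Col5a1 were bright in co-culture and above regular medium by less than 2-fold. The collagen gene Col1a2 had 188 in co-culture, 100.1 in conditioned medium and 102 in regular medium, and the receptor gene Pdgfra had 187.5 in co-culture, 159 in conditioned medium and 101 in regular medium. Eng and Nt5e, which encode surface proteins used to define MSCs, had log2 differences of 0.65 and 0.56 between co-culture and regular medium, and Col5a1 had 0.42. Col6a2 and Fbln2 lay below regular medium, with -0.59 and -0.33. The part of MSC RNA in the GTPase signals was not tested.

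Macrophages and lymphocytes also make these GTPases in quantity. The leukocyte marker Ptprc had 17.6 in co-culture, 0.5 in conditioned medium and 1.6 in regular medium, and Itgam, Tyrobp and Aif1 had 2.7, 5.2 and 2.4 in co-culture. Of 14 myeloid markers 3 were measured, and none was higher or lower. Cd14 had 348 in co-culture and 289 in regular medium, a log2 difference of 0.27. Cd68 had 273 and 201, a difference of 0.44, and Csf1r had 134 and 187, a difference of -0.48. The list summed to 1053.9 in co-culture, 977 in conditioned medium and 1002 in regular medium. None of 11 T and NK cell markers reached 149.3 on any array, and their sums were 276 in co-culture, 269.6 in conditioned medium and 304 in regular medium. Of 10 endothelial markers, Egfl7 was measured with a log2 difference of 0.01, and Pecam1 had 6.0 in co-culture. The endothelial sums were 472.5 in co-culture, 414 in conditioned medium and 517 in regular medium. The 17 epithelial markers summed to 113390 in co-culture, 88931 in conditioned medium and 86665 in regular medium, with a median log2 difference of 0.42 over the 16 measured. St14 was 2.04-fold higher in co-culture than in regular medium, and Krt14 was 2.77-fold lower.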

How the data were processed

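RNA from 3 cultures of 4T1 cells was hybridised to 1 array each, and groups were taken from the labels. The authors deposited a linear MAS5 intensity for each probe set, per the submitters' processing notes, and neither version nor scaling target was stated there. The trimmed means of the arrays (2% removed at each end) were 498 on all 3 after rounding, so the values were used without further scaling. The platform annotation named 1 gene for 34945 of the 45037 probe sets, several for 932 and none for 9160. Symbols were updated by gene ID for 34741. The members and gene lists were chosen with earlier results of these data known.

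The floor, the 149.3 limit, the 2-fold rule and the choice of probe set were applied to all genes. There was no test, with 1 array a group, and precision is limited by that number. Alternatives changed the floor, scaling, signal limit, probe set choice and size rule. Genes named were all members, listed family genes with a probe set, measured genes of the signalling list, up to 6 higher or lower genes of other lists with the largest differences, cell type markers, neighbours and the 10 nearest patterns. List genes under the floor, such as Ciita, and the largest and smallest values quoted within a list were named after their values were seen, as were Gsdmd, Atg5, Atg16l1 and Gabarapl2. Protein features were not analysed here. Promoters and gene order came from RefSeq GRCm38.p6. The tools were Biopython 1.88, Matplotlib 3.10.9, pandas 2.3.3, NumPy 2.4.6 and Python 3.11.15.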

Additional observations from a re-analysis of the deposited data

Results flagged for a closer look

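Probe sets with several gene symbols were left out of all comparisons, and 3 of them carried symbols of the GTPase families. A signal above that of regular medium was seen in 2. The probe set whose 2 symbols both belong to immunity-related GTPases had 1769.7 in co-culture, 72.2 in conditioned medium and 57.6 in regular medium, 30.7-fold higher in co-culture than in regular medium. The probe set with 2 symbols of very large interferon-inducible GTPases had 4369 in co-culture, 1128 in conditioned medium and 1074 in regular medium, 4.07-fold higher. The remaining one, with 2 symbols of guanylate-binding proteins, had 4.0 in co-culture, 8.7 in conditioned medium and 6.1 in regular medium. Which of the genes gave these signals cannot be told apart on the array.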

How the results depend on the processing

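All 8 GTPases were higher in co-culture than in either medium under the 20th and 60th percentile floors, quantile normalization, scaling to a common median, no signal limit, the mean over probe sets, omission of _x_at and _s_at probe sets and the 1.5-fold and 3-fold rules. With the brighter signal held to the 80th percentile the count was 5 in both comparisons, because Iigp1, Gbp2 and Gbp6 fell short of it. With the 4-fold rule it was 6 against regular medium and 7 against conditioned medium. The median log2 difference against regular medium ranged from 2.01, with the floor at the 60th percentile, to 3.02. That floor also brought Irgm2 to 3.68, Igtp to 3.32 and Iigp1 to 1.52 against either medium, and the mean over probe sets brought Gbp7 to 2.97 against regular medium and 2.69 against conditioned medium. Gbp6 ranged most, from 1.07 to 4.85, since its size is set by the floor. No GTPase was higher or lower in conditioned medium under any of the 11 alternatives. Scaling to a common median shifted the median of all measured genes by 0.14 in co-culture against regular medium, where 801 genes were higher and 167 lower in place of 546 and 259, so that 82.7% of calls were higher in place of 67.8%. In conditioned medium against regular medium it shifted that median by 0.16, with 25 higher and 18 lower in place of 10 and 28 (58.1% higher in place of 26.3%), and quantile normalization gave 15 and 25 (37.5%). No paired analysis was possible because each group had 1 array. Dim signals in the media thus limit the sizes for Irgm2, Igtp, Iigp1 and Gbp6, and dim signals on all arrays limit most ligand genes.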

Other observations

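The patterns were also counted in promoters of the other listed genes of the families. Among 11 windows, 7 held the ISRE pattern and 4 the GAS pattern, where 3.44% and 8.3% of all windows did. In 1 of the 7 the ISRE match lay after the start, and 4 windows, those of Ifi47 and Irgq among them, held neither pattern. Across all 32851 windows, a GAS match that ended 2 bases before an ISRE match was found in 5 windows, those of Irgm2, Igtp, Tgtp1, Tgtp2 and Gm12185. Gm12185 is the next named gene after Irgm1 and had 55.8 in co-culture, 60 in conditioned medium and 93.6 in regular medium. Irgm2 and Igtp were the only ones of the 5 that were measured in co-culture against regular medium.

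Of 431 genes with a window that were higher in co-culture and were not members, 9.05% held the ISRE pattern in a window, against 3.47% of 7717 measured genes. The GAS pattern was held by 8.35% and 7.97%. Of 19 genes listed as driven mainly by ISGF3 that had a window, 10 held the ISRE pattern and 3 the GAS pattern. Of 14 genes listed as driven mainly by interferon gamma, 2 held the ISRE pattern and 3 the GAS pattern. These windows cover only the bases next to the start, and the shares are counts with no test.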
